A study of Homo sapiens with 6 samples.

Results

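The genes described here are 10 chemokine genes, CXCL1, CXCL2, CXCL3, CXCL5, CXCL6, CXCL8, CXCL12, CCL2, CCL7 and CCL20. They were taken by symbol from the 58735 genes of the deposited count table. RNA was sequenced in 6 libraries from LX-2 cells, a human line derived from hepatic stellate cells and labelled wild type in genotype. Per the labels, 3 libraries came from cells given NSUN2 siRNA and then TGF-β1 at 5 ng/ml for 24 hours, starting 48 hours after transfection, and the other 3 from cells given NSUN2 siRNA only, in which no time of harvest is labelled. NSUN2 encodes an RNA cytosine methyltransferase. The siRNA was thus common to all 6 libraries, and cells without it were not analysed here. In the series' design text the siRNA is instead given as NAT10, and here the target on each sample's label was used. The replicates are called biological, with no word on separate cultures or days, so p-values measure the spread between these libraries, which may be technical.

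Chemokines are small secreted proteins that draw leukocytes along a gradient by acting on G protein-coupled receptors. They are classed by the spacing of their first conserved cysteines into CXC and CC families. CXC chemokines that carry a Glu-Leu-Arg motif ahead of the cysteines, the ELR-positive group of CXCL1, CXCL2, CXCL3, CXCL5, CXCL6 and CXCL8, act on CXCR2 (CXCL6 and CXCL8 also on CXCR1) and attract neutrophils. CXCL12 lacks that motif, acts on CXCR4 and is bound by the scavenging receptor ACKR3. CCL2 and CCL7 attract monocytes through CCR2, and CCL20 attracts cells that bear CCR6. Activated hepatic stellate cells are a known source of several of these ligands in injured liver, and the ELR-positive genes are classical targets of the transcription factor NF-kB.

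The 6 ELR-positive genes lie together on chromosome 4, and letters found in their promoters are shown. Whether these letters bear on the changes described below was not tested. Promoters were read from RefSeq (GRCh38.p14) as the 250 bases before and 50 bases after each gene's RefSeq start, and 9 of the 10 members had an entry. That start equals the start of the gene in the deposited table for CXCL1 and CCL7. It lies 63 to 181 bases downstream for the other 5 ELR-positive genes, 1396 bases downstream for CXCL12 and 8103 for CCL20, so that the windows of CXCL2, CXCL3, CXCL5 and CXCL6 shown here fall inside the genes as deposited. The NF-kB consensus was searched on both strands as the letters GGGRNNYYCC, where R is A or G, Y is C or T and N is any base. It matched in 6 of these 9 promoters, those of CXCL1, CXCL2, CXCL3, CXCL5, CXCL6 and CCL20, against 11.3% of all 35116 promoters of the table. In the first 5 of them the matches on the 2 strands overlapped in 1 run of 11 bases, GGGAATTTCCC, present in 27 promoters of the table (0.08%). CXCL8 held the inner 9 bases of that run, GGAATTTCC, which occurred in 162 promoters (0.46%), and CXCL12, CCL7 and CCL20 held neither. Windows of 31 bases around these letters follow, each 5′ to 3′ on the strand of its gene, with the shared letters in capitals. They were chosen after the promoter sequences had been read.
CXCL1: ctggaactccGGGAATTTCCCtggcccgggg
CXCL2: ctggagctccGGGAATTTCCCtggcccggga
CXCL3: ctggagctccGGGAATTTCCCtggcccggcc
CXCL5: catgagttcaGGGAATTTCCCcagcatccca
CXCL6: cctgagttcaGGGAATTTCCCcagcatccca
CXCL8: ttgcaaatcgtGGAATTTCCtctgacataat

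The windows fall into 3 forms. Those of CXCL1, CXCL2 and CXCL3 share their flanks, those of CXCL5 and CXCL6 share another pair of flanks, and CXCL8 stands by itself. Over the whole 300 bases CXCL1 and CXCL3 were 82.5% identical, CXCL2 was 68.4% identical to CXCL1 and 70.9% to CXCL3, and CXCL5 and CXCL6 were 83.1% identical. CXCL8 was 38.4% to 40.5% identical to the other 5. The run began 79, 78, 79, 91 and 90 bases ahead of the RefSeq start in CXCL1, CXCL2, CXCL3, CXCL5 and CXCL6, and the inner letters began 91 bases ahead in CXCL8. A match is a description of letters and not of a bound site.

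In the same order and build the windows lie at chr4:73869304-73869334 (plus strand), chr4:74099253-74099283 (minus), chr4:74038748-74038778 (minus), chr4:73998748-73998778 (minus), chr4:73836578-73836608 (plus) and chr4:73740467-73740497 (plus). The 2 promoters printed whole are those of the gene with the largest fall, CXCL2, and of the tested gene with the largest rise among those with an entry, CXCL12. CXCL2 is at chr4:74099146-74099445 on the minus strand and CXCL12 at chr10:44385048-44385347 on the minus strand. Capitals again mark NF-kB consensus letters, of which CXCL12 had none.
CXCL2: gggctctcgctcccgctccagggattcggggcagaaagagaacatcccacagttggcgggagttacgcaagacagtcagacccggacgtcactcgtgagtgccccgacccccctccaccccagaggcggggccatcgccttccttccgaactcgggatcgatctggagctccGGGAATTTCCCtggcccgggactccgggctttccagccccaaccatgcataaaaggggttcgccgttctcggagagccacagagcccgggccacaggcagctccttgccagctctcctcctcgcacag
CXCL12: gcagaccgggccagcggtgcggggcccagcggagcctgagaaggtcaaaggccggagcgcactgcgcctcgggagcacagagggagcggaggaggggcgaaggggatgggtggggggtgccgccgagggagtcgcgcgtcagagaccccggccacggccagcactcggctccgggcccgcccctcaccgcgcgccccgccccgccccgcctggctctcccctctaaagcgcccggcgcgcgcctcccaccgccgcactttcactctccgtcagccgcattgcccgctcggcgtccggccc

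Of other motifs searched on both strands, the AP-1 letters TGANTCA were found in CXCL8 and CCL7, against 7.7% of all promoters, and the SMAD box letters CAGACA in CXCL5 only, against 16.9%. The TATA letters TATAAA were found in CXCL8, CCL7 and CCL20, against 11.5%. No motif of these 4 was found in the CXCL12 window, and CCL2 had no entry.

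The TGF-β1 libraries held 25828504 to 29978361 counts and the untreated libraries 26957170 to 30034762. Replicate libraries were not copies of each other (chi-square over its degrees of freedom, 3.66 to 4.86). The first principal component separated the groups and held 58.7% of the variance. On the second, with 12.1%, TGF-β1 replicates 1, 2 and 3 scored 33.1, -6.29 and -27.4, and untreated libraries scored -1.59 to 1.67. NSUN2, the labelled siRNA target, was at 101 ± 3.07 normalised CPM (counts scaled by TMM library size) with TGF-β1 and 82.9 ± 1.47 CPM without (SD, n = 3 each). Its knockdown cannot be computed without cells lacking the siRNA. As a check of cell identity, the fibroblast and stellate genes COL1A1 and SPARC were at 3990 and 1620 CPM with TGF-β1 and 1420 and 799 CPM without, whereas the stellate markers COL1A2 and ACTA2 were low, at 3.18 and 4.29 CPM with TGF-β1 and 1.30 and 7.15 CPM without. LRAT, of quiescent stellate cells, and DCN had 0 counts in every library. Of 17 tested stellate and fibroblast marker entries, RGS5 being present under 2 gene IDs, 9 were called higher and 5 lower. These and the marker counts that follow stand beside 20.2% called higher and 18.7% called lower over all tested genes. Of 18 leukocyte markers 6 had no count in any library, CD3E and MS4A1 among them, and the pan-leukocyte gene PTPRC had 5 counts in all over the TGF-β1 libraries and 4 over the untreated ones. Another 6 were tested, of which 2 were called higher (LAPTM5 and CSF1R) and 1 lower (CD14). CSF1R was at 12.3 CPM with TGF-β1 and 4.34 CPM without, and CD14 at 3.71 and 8.49 CPM. The summed leukocyte markers were at 203 to 221 CPM with TGF-β1 and 144 to 152 CPM without, mostly LAPTM5 at 192 and 128 CPM, and their part in the results was not tested. The hepatocyte gene ALB had 0 counts in all with TGF-β1 and 1 without. Of 10 hepatocyte markers 1 was tested and not called. Of 10 cholangiocyte and epithelial markers 6 were tested (3 higher, 2 lower), and of 10 endothelial markers 4 (1 higher, 1 lower). Some of these were well above the detection limit. KRT8 and KRT18 were at 262 and 254 CPM with TGF-β1 and 217 and 214 CPM without, and the endothelial gene TIE1 at 171 and 199 CPM.

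The question put to these genes is how chemokine transcripts respond to TGF-β1, the cytokine that activates stellate cells, in cells given NSUN2 siRNA. All 6 ELR-positive genes fell. CXCL2 was 3.58-fold lower, CXCL3 2.34-fold, CXCL5 2.25-fold, CXCL6 1.96-fold, CXCL1 1.596-fold and CXCL8 1.34-fold lower with TGF-β1. CXCL12 rose 4.24-fold. CCL2 rose 9.09-fold and was near the detection limit without TGF-β1. CCL7 and CCL20 were too low to be tested. In a bulk sample, fewer cells making a transcript and less transcript per cell cannot be told apart.

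Counts were compared with edgeR's quasi-likelihood test with Benjamini-Hochberg adjustment over the 17215 genes that passed a filter on low counts, and a gene is called at an adjusted p under 0.05. Of the 10 members 8 passed the filter, 6 were called lower and 2 higher. Across all tested genes 18.7% were called lower and 20.2% higher, 38.9% in all. CCL2 passed the filter only through the TGF-β1 libraries, so its call rests on a gene that had to differ to be tested. Falls of at least 1 on the log2 scale, as in CXCL2, CXCL3 and CXCL5, were called for 3.4% of tested genes and rises of that size for 3.11%. The median log2 fold change of the 6 ELR-positive genes was -1.07, against -0.01 over all tested genes. Groups did not overlap in normalised CPM for 6 members that were lower and 3 that were higher (the untested CCL20 among them), against 23.3% and 24.1% of tested genes (47.4% in either direction). With library totals in place of TMM factors the median of all genes moved to -0.13 and 2022 genes were called higher and 5352 lower (27.4% of calls higher, against 51.8%), while the same 6 members were called lower and the same 2 higher.

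**Figure D1:**
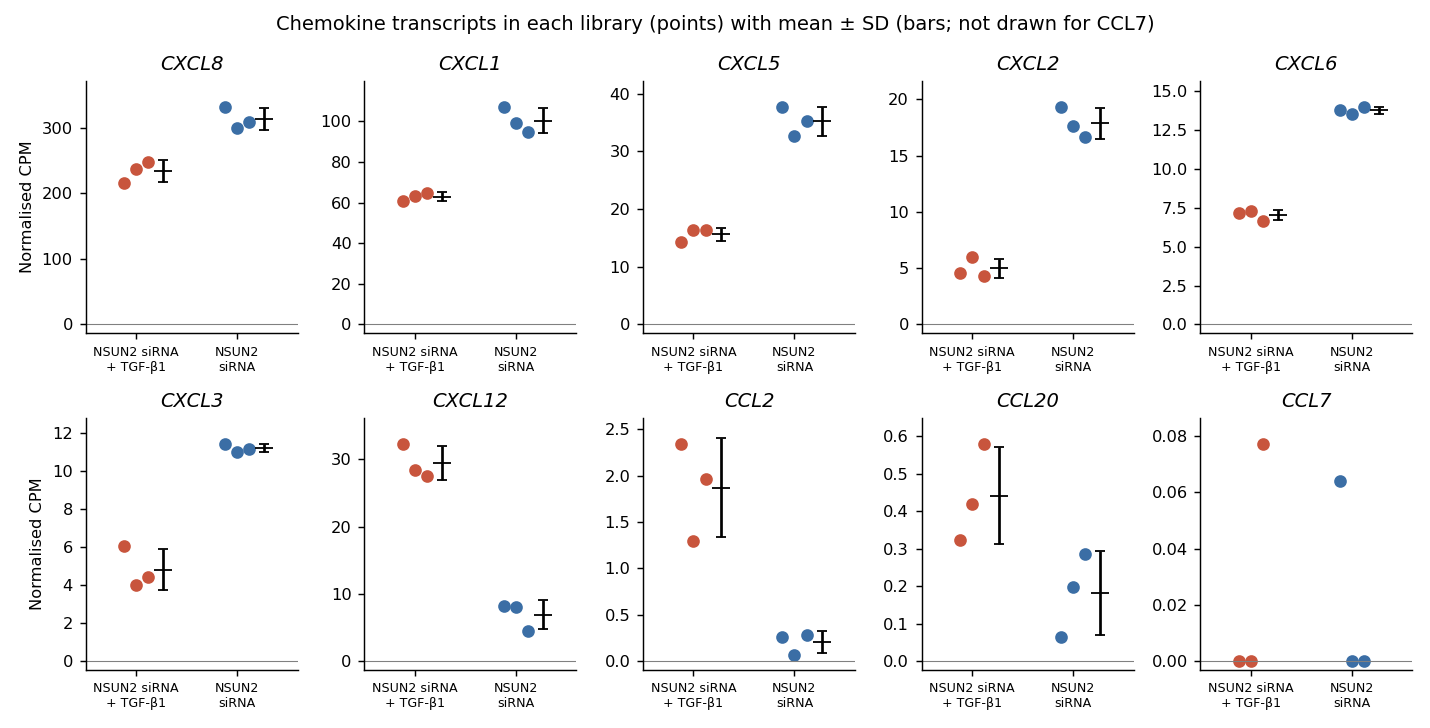
Normalised CPM (y axis, linear from 0) of each chemokine gene in the 3 libraries with NSUN2 siRNA and TGF-β1 (left) and the 3 with NSUN2 siRNA only (right); points are libraries, bars the mean and SD. In the 6 ELR-positive genes every TGF-β1 library lies below every untreated one, and in CXCL12 and CCL2 every one lies above.

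CXCL8 (ENSG00000169429, chr4:73740506-73743716, plus strand), interleukin 8, the most potent neutrophil attractant of the family, was the most abundant member. It had 5326, 6782 and 6418 counts in the TGF-β1 libraries, against 10355, 9134 and 8648 in the untreated libraries. On the normalised scale these were 215, 237 and 248 CPM with TGF-β1 and 331, 299.8 and 309 CPM without, and the groups did not overlap. The log2 fold change was -0.42 ± 0.05 (SE; adjusted p = 1.39e-07). It is the smallest change of the 8 tested members, and 72.8% of tested genes moved by no more in size. TGF-β1 replicate 1 was the lowest library, and without it the value was -0.37.

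CXCL1 (ENSG00000163739, chr4:73869393-73871242, plus), also called GRO-alpha, was the next in abundance. It had 60.5, 63.3 and 64.9 CPM with TGF-β1, against 107, 99.3 and 94.8 CPM without. The libraries within a group lay close together, with coefficients of variation of 3.49% and 6.17%, and the gap between groups was wider than either. The log2 fold change was -0.67 ± 0.05 (adjusted p = 3.23e-15).

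CXCL2 (ENSG00000081041, chr4:74097035-74099293, minus) and CXCL3 (ENSG00000163734, chr4:74036589-74038807, minus), GRO-beta and GRO-gamma, are the closest relatives of CXCL1 and fell by more. CXCL2 had 114, 171 and 112 counts (4.61, 5.97 and 4.33 CPM) with TGF-β1, against 604, 538 and 466 counts (19.3, 17.7 and 16.6 CPM) without. Every untreated library was thus well above every TGF-β1 library, and the log2 fold change of -1.84 ± 0.13 was the largest fall among the members (adjusted p = 3.56e-16). CXCL3 had 149, 114 and 114 counts (6.02, 3.98 and 4.403 CPM) with TGF-β1, against 357, 335 and 313 counts (11.4, 10.99 and 11.2 CPM) without. Its TGF-β1 libraries were uneven, with a coefficient of variation of 22.5% against 1.90% in the untreated ones, and replicate 1 was the highest. The log2 fold change was -1.23 ± 0.14 (adjusted p = 2.33e-09), and -1.41 without that library.

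These 3 genes resemble each other enough for reads to be mis-assigned. Their coding sequences of 321 bases were 93.5% (CXCL1 and CXCL2), 90.7% (CXCL1 and CXCL3) and 94.4% (CXCL2 and CXCL3) identical. Of the 50-base windows of the longest coding transcript, 5.7% in CXCL1, 9.2% in CXCL2 and 5.3% in CXCL3 also occurred in another of the 3, and of the 100-base windows 0 did. The sources used here give neither the read length nor how reads with several matches were handled. Their summed counts, which do not depend on how reads were divided among them, were 72.7 ± 1.32 CPM with TGF-β1 and 129.4 ± 7.70 CPM without (SD, n = 3 each). In a fit with the sum as 1 gene the log2 fold change was -0.83 ± 0.05 (edgeR adjusted p = 2.18e-19). The sum is mostly CXCL1, so it says little of CXCL2 and CXCL3 taken alone.

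CXCL5 (ENSG00000163735, chr4:73995642-73998779, minus) and CXCL6 (ENSG00000124875, chr4:73836497-73849064, plus), epithelial neutrophil-activating peptide and granulocyte chemotactic protein, form another pair of close relatives, with coding sequences of 342 bases that were 87.4% identical. CXCL5 had 355, 468 and 422 counts (14.4, 16.3 and 16.3 CPM) with TGF-β1, against 1178, 997 and 989 (37.7, 32.7 and 35.3 CPM) without. CXCL6 had 178, 209 and 172 counts (7.20, 7.29 and 6.64 CPM) with TGF-β1, against 432, 413 and 392 (13.8, 13.6 and 13.99 CPM) without. Neither gene overlapped between groups. The log2 fold change was -1.17 ± 0.08 for CXCL5 (adjusted p = 9.91e-16) and -0.97 ± 0.12 for CXCL6 (adjusted p = 4.75e-09). CXCL6 shares 4.3% of its exonic bases with the pseudogene PPBPP1, which had 0 counts, and the other 9 members share none with another annotated gene.

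**Figure D2:**
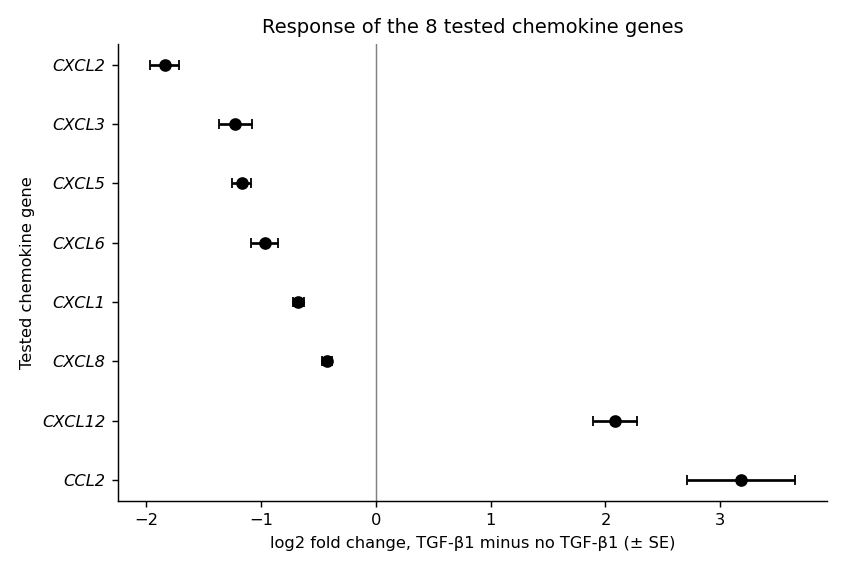
Log2 fold change (x axis, TGF-β1 minus no TGF-β1, with SE) of the 8 tested chemokine genes, in order. The 6 ELR-positive genes run from -1.84 (CXCL2) to -0.42 (CXCL8), and CXCL12 (2.08) and CCL2 (3.18) lie on the other side of 0.

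CXCL12 (ENSG00000107562, chr10:44370165-44386493, minus), stromal cell-derived factor 1, which retains and attracts CXCR4-bearing cells, moved the other way. It had 799, 814 and 713 counts (32.3, 28.4 and 27.5 CPM) with TGF-β1, against 257, 244 and 125 counts (8.22, 8.01 and 4.46 CPM) without. Untreated replicate 3 was low, so the untreated libraries had a coefficient of variation of 30.6%, but the highest of them was still far below the lowest TGF-β1 library. The log2 fold change was 2.08 ± 0.19 (adjusted p = 3.45e-05), and 1.85 without untreated replicate 3. Of all tested genes 98.3% moved by no more in size.

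Among the CC chemokines CCL2 (ENSG00000108691, chr17:34255218-34257203, plus), monocyte chemoattractant protein 1, had 58, 37 and 51 counts with TGF-β1, against 8, 2 and 8 without. The normalised levels were 2.35, 1.29 and 1.97 CPM with TGF-β1 and 0.26, 0.07 and 0.29 CPM without, with no overlap. The log2 fold change was 3.18 ± 0.47 (adjusted p = 3.39e-07). From the summed counts of 146 and 18 the normalised ratio was 9.18 with an exact 95% interval of 5.61 to 15.9. By FPKM CCL2 stood at percentile 28.1 of the tested genes with TGF-β1 and 2.68 without.

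CCL20 (ENSG00000115009, chr2:227805739-227817564, plus) had 8, 12 and 15 counts with TGF-β1, against 2, 6 and 8 without. The normalised ratio was 2.48 (exact 95% interval 1.33 to 4.79, counting error only). With no filter on low counts it had a log2 fold change of 1.27 ± 0.74 that edgeR did not call (adjusted p = 0.292), so at this depth no difference was established. CCL7 (ENSG00000108688, chr17:34270221-34272242, plus) had 0, 0 and 2 counts with TGF-β1 and 2, 0 and 0 without, below the floor of 3 counts in each group, which is 0.0378 CPM over the TGF-β1 libraries and 0.0334 CPM over the untreated ones, and no fold is given. In every library more genes had exactly 2 counts (2504 to 2708) than exactly 1 (1403 to 1598). The sources used here do not say whether each mate of a pair was counted. With counts halved the intervals widened to 4.58 to 20.9 for CCL2 and 1.05 to 6.77 for CCL20.

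Levels of different genes were compared in FPKM, which divides by gene length. That length counts every annotated exonic base of a gene, 1500 for CXCL2, 2219 for CXCL3, 2183 for CXCL6 and 6077 for CXCL12. The coding transcripts of some members are much shorter, CXCL3 and CXCL12 among them. The order and the shares given below may thus differ with transcript length, which was not tested. CXCL8, CXCL1 and CXCL5 came first, in that order, in all 6 libraries, at 99.8 ± 7.20, 47.2 ± 1.71 and 6.002 ± 0.44 FPKM with TGF-β1 and 133.7 ± 7.27, 75.2 ± 4.81 and 13.5 ± 0.98 FPKM without (SD, n = 3 each). With TGF-β1 CXCL12 followed at 4.71 ± 0.40 FPKM, against 1.10 ± 0.34 FPKM without, where it came after all 6 ELR-positive genes. CXCL2 was at 3.22 ± 0.56 FPKM, CXCL6 at 3.14 ± 0.15 and CXCL3 at 2.11 ± 0.47 with TGF-β1, against 11.6 ± 0.90, 6.13 ± 0.10 and 4.90 ± 0.11 FPKM without. Neighbours that overlapped in range were CXCL2 and CXCL6 with TGF-β1, and CXCL5 and CXCL2 without. By FPKM CXCL8 stood at percentile 98.2 of tested genes with TGF-β1 and 98.9 without, and CXCL12 at 56.4 and 30.3.

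Summed over the 6 ELR-positive genes, FPKM was 151.8, 163.7 and 169.0 in the TGF-β1 libraries, against 260.3, 236.6 and 237.8 in the untreated ones. CXCL8 took 60.6% to 62.9% of this sum with TGF-β1 and 54.0% to 55.3% without. CXCL2 took 1.66% to 2.36% with TGF-β1 and 4.52% to 4.82% without. The share of CXCL1 was 28.9% to 29.9% with TGF-β1 and 29.8% to 31.4% without, and these ranges overlapped.

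**Figure D3:**
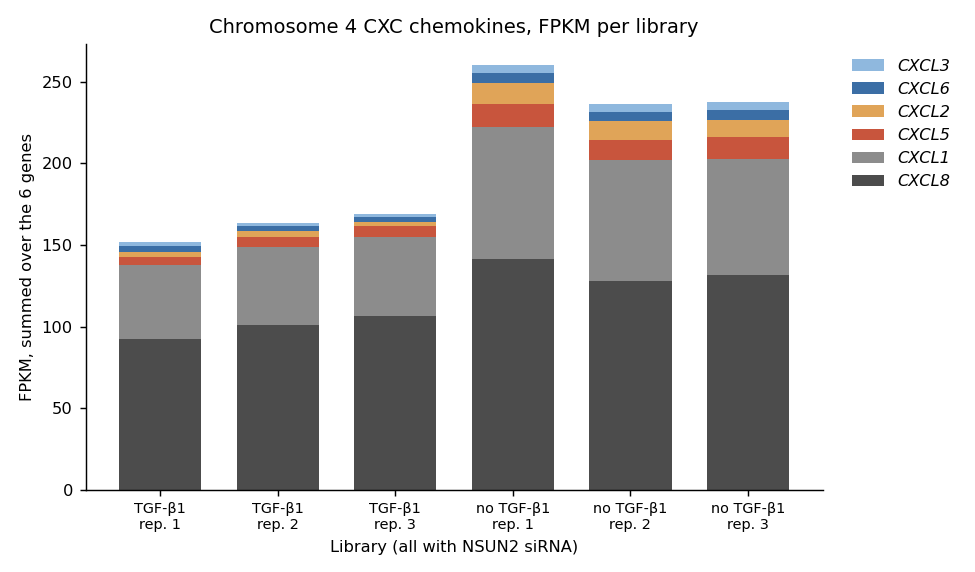
FPKM (y axis, linear from 0) of the 6 ELR-positive genes stacked for each library, the 3 TGF-β1 libraries on the left and the 3 untreated ones on the right. The stacks reach 151.8 to 169.0 FPKM with TGF-β1 and 236.6 to 260.3 FPKM without, and CXCL8 and CXCL1 make up most of each.

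Ratios of counts within a library need no scaling between libraries. Relative to CXCL8, the log2 ratio of CXCL2 was -5.55, -5.31 and -5.84 in the TGF-β1 libraries, against -4.10, -4.09 and -4.21 in the untreated libraries, a difference of -1.43. The corresponding differences were -0.82 for CXCL3, -0.74 for CXCL5, -0.54 for CXCL6 and -0.25 for CXCL1. All 5 ratios were lower in every TGF-β1 library than in any untreated one. Each of these 5 genes thus fell by more than CXCL8 in these libraries, and ratios among the 5 were not compared. The ratios share the CXCL8 count of each library, so they are not independent. What share of all tested genes separates in this way against CXCL8 was not counted. CXCL12 rose against CXCL8 by 2.57, and there were 6.67, 8.33 and 9 CXCL8 counts per CXCL12 count with TGF-β1, against 40.3, 37.4 and 69.2 without. The exact two-sided permutation test gave p = 0.1 for each of the 6 ratios, the smallest that 3 libraries against 3 can give, and 0.1 after adjustment over the 6.

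**Figure D4:**
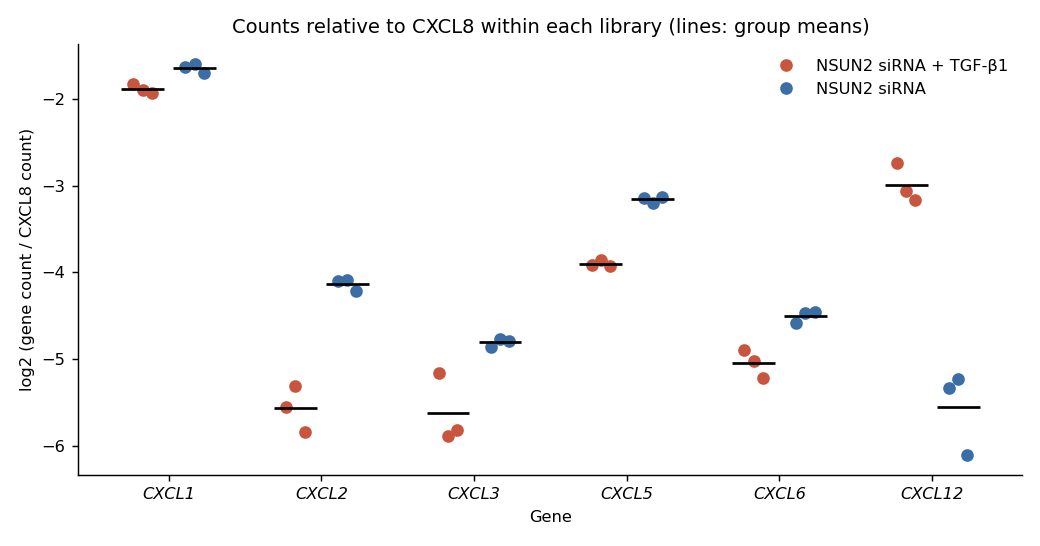
Log2 of each gene's count over the CXCL8 count of the same library (y axis), with TGF-β1 (left of each pair) and without (right); points are libraries and lines group means. CXCL1, CXCL2, CXCL3, CXCL5 and CXCL6 are lower relative to CXCL8 with TGF-β1, with differences of -0.25 to -1.43 on the log2 scale, and CXCL12 is higher.

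The 6 ELR-positive genes lie within 358.8 kb of chromosome 4 (hg38, 73740506 to 74099293), in the order CXCL8, CXCL6, CXCL1, CXCL5, CXCL3 and CXCL2, on both strands. That interval holds 10 other genes of the table, and none passed the filter. The platelet chemokine genes PF4, PF4V1 and PPBP, which lie among the members, had 0 counts in every library. The interval was widened by 500 kb on each side after the values had been seen. On the side of CXCL8, ANKRD17 and AFP were tested and not called, with log2 fold changes of 0.06 ± 0.03 and 0.12 ± 0.48. On the side of CXCL2, all 4 tested genes fell and were called lower, where 18.7% of all tested genes were called lower. Whether position on the chromosome bears on this was not tested. MTHFD2L, a mitochondrial folate enzyme gene, changed by -0.76 ± 0.16 (edgeR adjusted p = 0.000101). The epidermal growth factor family ligands AREG, EPGN and EREG changed by -2.55 ± 0.185, -3.69 ± 0.40 and -3.88 ± 0.50. EREG had 16 counts in all with TGF-β1 and 276 without, and EPGN 15 and 224. Neither would have passed the filter on the TGF-β1 libraries alone, so both had to differ to be tested.

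**Figure D5:**
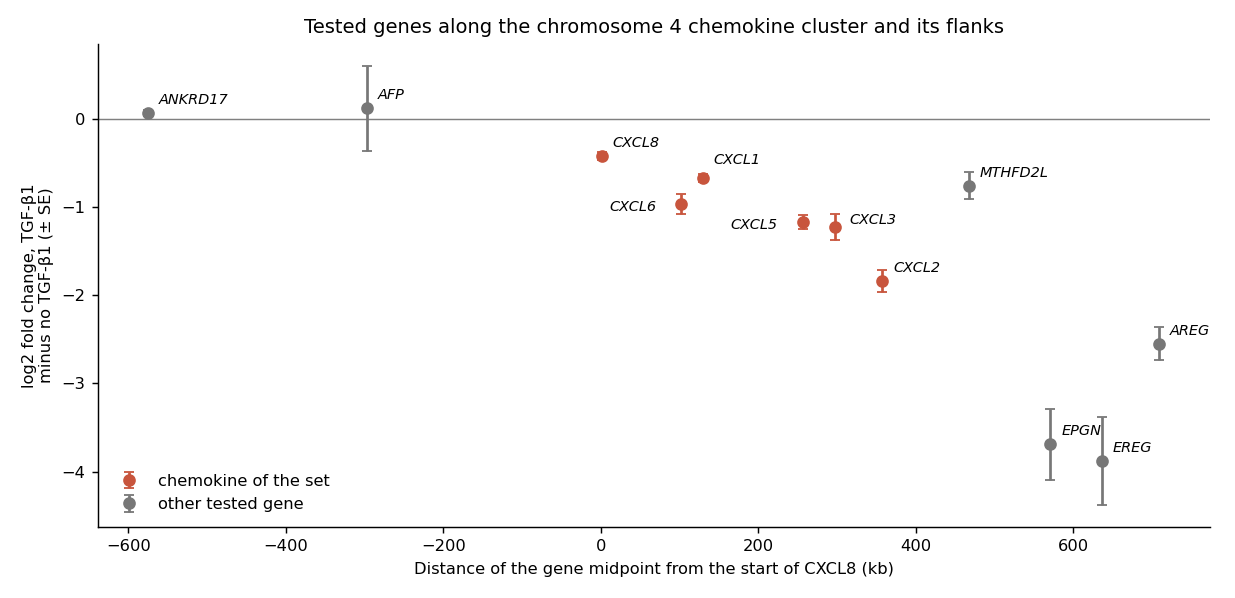
Log2 fold change (y axis, TGF-β1 minus no TGF-β1, with SE) of every tested gene within the chromosome 4 cluster and 500 kb on each side, against the distance of its midpoint from the start of CXCL8 (x axis, kb). The 6 chemokine genes lie below 0, 4 tested genes to their right, on the CXCL2 side, are also below 0, and the 2 tested genes to their left are close to it.

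Of 36 other human chemokine ligand genes 7 were tested and 19 had no count in any library. Among those tested 1 was called higher and 1 lower, against 20.2% and 18.7% of all tested genes. CCL5 (RANTES), which attracts T cells and monocytes, had 131, 127 and 132 CPM with TGF-β1, against 111, 118 and 109 CPM without, a log2 fold change of 0.20 ± 0.04 (edgeR adjusted p = 7.22e-05). CXCL16, a transmembrane ligand of CXCR6, had 3.11, 2.62 and 3.51 CPM with TGF-β1, against 5.47, 3.94 and 4.32 without (log2 fold change -0.57 ± 0.20, adjusted p = 0.0178). The 5 tested ligands that were not called were CXCL10, CXCL11, CCL3, CCL3L1 and CCL26.

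The receptors of the members were at or near the limit of detection. CXCR1, CCR2 and CCR6 had 0 counts in every library, where 3 counts correspond to 0.105 to 0.121 CPM in a TGF-β1 library and 0.096 to 0.107 CPM in an untreated one. CXCR2 had 7 counts in all with TGF-β1 and 30 without, CXCR4 19 and 32, and ACKR3 21 and 6, and none of these was tested. Of 23 chemokine receptor genes 6 were tested, of which 3 were called lower and 0 higher, against 18.7% and 20.2% of all tested genes. CCRL2, an atypical receptor that binds chemerin, was at 4.92 ± 0.46 CPM with TGF-β1 and 11.2 ± 1.21 CPM without (log2 fold change -1.18 ± 0.14). CCR10 changed by -0.91 ± 0.25 and CCR1, which CCL7 also engages, by -2.08 ± 0.52. CCR1 had 18 counts in all with TGF-β1 and 87 without and passed the filter only through the untreated libraries, so it had to differ to be tested. ACKR1, a scavenger of CXCL8 and CCL2, was not called (-0.63 ± 0.45, adjusted p = 0.288).

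Genes that act upstream of the ELR-positive chemokines moved in both directions. The counts for this and the later lists stand beside 20.2% called higher and 18.7% called lower over all tested genes. Of 18 NF-kB subunits and regulators, all tested, 9 were called higher and 5 lower, with a median log2 fold change of 0.14. The subunit genes NFKB1, RELB, NFKB2 and RELA were higher by 0.47 ± 0.05, 0.40 ± 0.05, 0.37 ± 0.04 and 0.27 ± 0.04, whereas the kinase gene IKBKB changed by -0.62 ± 0.05, BCL3 by -0.80 ± 0.07 and the inhibitor gene NFKBIA by -0.30 ± 0.05. RELB, NFKB2, RELA and NFKBIA were named after their values were seen. Of 21 tested genes among the interleukin 1, tumour necrosis factor, interleukin 17 and Toll-like receptor inputs, 2 were called higher and 10 lower (median -0.35). The 10 include IL33 (11 counts in all with TGF-β1, 57 without) and IL18 (38 and 113), named after their values were seen. Neither would have passed the filter on the TGF-β1 libraries alone, so both were tested because of their untreated level. The receptor gene TNFRSF1B changed by -2.58 ± 0.11, IL17RC by -0.63 ± 0.10 and the co-receptor gene IL1RAP by 0.66 ± 0.05. IL1B, the cytokine gene for a strong inducer of CXCL8 and named after its value was seen, was at 361 ± 18.5 CPM with TGF-β1 and 453 ± 9.80 CPM without (-0.33 ± 0.03).

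Among 17 tested AP-1, C/EBP, IRF and STAT factor genes 5 were called higher and 7 lower (median -0.04). JUNB rose by 2.04 ± 0.05, and FOSL1 and FOS, which also encode AP-1 subunits, changed by -1.38 ± 0.04 and -1.05 ± 0.13. Of 15 genes listed for proteins that destabilise or stabilise AU-rich and stem-loop mRNAs, a group to which many chemokine transcripts belong, 6 were called higher and 2 lower (median 0.09). The list also holds the RNA-binding protein genes YBX1 and ALYREF, which are not specific to these elements. ALYREF, named after its value was seen, is among the 6 (0.13 ± 0.04). ZFP36, which encodes the decay factor tristetraprolin, changed by -0.80 ± 0.13, ZC3H12C by -0.59 ± 0.09, and the stabilising factor gene ARID5A by 1.01 ± 0.10.

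Of 13 tested genes for proteases known to cut chemokines 5 were called higher and 4 lower (median 0.00). MMP2, which can inactivate CXCL12 and convert CCL7 into an antagonist, had a log2 fold change of 3.12 ± 0.05, against -3.79 ± 0.05 for MMP1 and -2.30 ± 0.30 for MMP3. DPP4, which trims the amino terminus of CXCL12, had 2 counts in all with TGF-β1 and 23 without, and was not tested. Of 13 tested genes for other secreted leukocyte factors 3 were called higher and 6 lower (median -0.36). IL6 and IL11 had log2 fold changes of 2.72 ± 0.08 and 2.11 ± 0.03, and the pentraxin gene PTX3 one of -3.50 ± 0.05. CSF3, the granulocyte growth factor gene, named after its value was seen, had 1.88 ± 0.31 CPM with TGF-β1 and 6.90 ± 0.42 CPM without (-1.87 ± 0.19).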

How the data were processed

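RNA-seq libraries were grouped by their titles into NSUN2 siRNA with TGF-β1 (3) and NSUN2 siRNA only (3). HISAT2 2.2.1, fastp and the hg38 build are listed, per the submitters' processing notes; the sources used here name no counting tool or strand setting. The authors deposited read counts per gene, not normalized, and FPKM values. Within a library the deposited FPKM equalled counts over gene length and 1 library size, 0.984 to 0.987 times the total count with TGF-β1 and 1.07 to 1.08 times without. Both deposited files hold 6 further per-sample columns that matched no sample; these were not used. All 58735 gene IDs, with start, end and strand, matched GENCODE release 29.

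Counts were fitted with edgeR 4.0.16 in R 4.3.3 (TMM factors, filterByExpr with minimum count 10 and minimum total 15, robust glmQLFit and glmQLFTest, two-sided, group as the only term, 4 residual degrees of freedom). Standard errors (SE) are the absolute log2 fold change over the square root of F. Of 58735 genes 33743 had a count and 17215 were tested. Coding and promoter sequences were aligned globally with Biopython 1.88. Exact 95% intervals are conditional on the summed count; they and the floor of 3 counts cover counting error only. The members and the 13 gene lists were chosen with earlier results of these data known. Beside the members and NSUN2, genes named were up to 3 called genes per list with the largest change and a mean of at least 1 CPM, tested receptors of the members, and those said to be named after their values were seen; lists of cell markers gave the identity check only. On simulated counts (3 draws, 200 changed genes, 16842 genes in the first) the test recovered 62.4% of genes changed 1.5-fold, 75.7% at 2-fold and 95.4% at 4-fold, with 7.54% of calls false. A far larger share of genes was called in the data (38.9%) than was changed in the simulation, so these percentages need not hold for the data. Alternatives were other scaling (DESeq2 size factors, upper quartile, library totals), 2 other filters, DESeq2 1.42.0, limma-voom (limma 3.58.1), a fit that was not robust, a replicate block, fits that each left out 1 library, and limma on FPKM after log2 with a pseudocount of 1 or 0.1.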

Additional observations from a re-analysis of the deposited data

How the results depend on the processing

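All 8 tested members kept their direction and their call under each of the 18 alternatives (144 of 144 values), and 6 were called lower and 2 higher in every one. CCL2 is among them and, wherever a filter was used, passed it only through the TGF-β1 libraries, so it had to differ to be tested there. Its untreated mean was 0.20 CPM and 0.099 FPKM. Its agreement across those alternatives was thus largely fixed by the filters. In edgeR without a filter on low counts its log2 fold change was 3.18 ± 0.46. Log2 fold changes ran from -2.00 to -1.58 for CXCL2, -1.41 to -0.94 for CXCL3, -1.29 to -1.05 for CXCL5, -1.09 to -0.79 for CXCL6, -0.79 to -0.63 for CXCL1, -0.54 to -0.37 for CXCL8, 1.45 to 2.23 for CXCL12 and -0.95 to -0.79 for CXCL1, CXCL2 and CXCL3 summed. CCL2 ran from 0.79 to 3.49; its lowest value came from log2(FPKM + 1), where the pseudocount exceeds its level in untreated cells, and was 2.36 with a pseudocount of 0.1. Calls over all genes moved with library totals alone (2022 higher, 5352 lower) and with log2(FPKM + 1) without a filter (1978 lower, against 3226). With the replicate block 3431 genes were called higher and 3182 lower, and 2 and 6 members. Deviations of same-numbered libraries correlated at -0.01 to 0.01, and those of other pairs at -0.02 to 0.03. No pairing by number was thus seen, though so few libraries cannot exclude it. Depth limits CCL7, CCL20 and the receptors that were not tested, CXCR2 and CXCR4 among them.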
